A study of Rattus norvegicus with 30 samples.

Results

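Baseline regional gene expression of the rat kidney was examined in 10 of the 30 mRNAseq libraries of the series, namely every library from rats on the low-salt (LS) diet: 5 of the renal cortex (Cx) and 5 of the outer medulla (OM). The tissues were set against each other by replicate number, 1 to 5. All donors were male Sprague-Dawley rats on a 0.4% NaCl chow, with no genetic change or drug named for either tissue group, and Cx and OM were cut from right kidneys, 5 for each diet group. Neither the age of these rats nor whether they had undergone surgery or catheter infusion could be settled from the sources used here. None of those sources states that libraries of equal number came from 1 rat. The other 20 libraries, from rats moved to a 4.0% NaCl diet for 14 d (HS14) or 21 d (HS21), were used only to look at the same regional contrast in other animals. Each library sums the RNA of a whole tissue piece, so fewer cells of a type and less RNA per cell cannot be told apart.

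The nephron crosses these regions in a fixed order. Glomeruli, the convoluted parts of the proximal tubule (segments S1 and S2) and the distal convoluted and connecting tubules lie in the cortex, whereas the straight end of the proximal tubule (segment S3), most of the medullary thick ascending limb (TAL), the beginning of the thin limbs and the descending vasa recta lie in the outer medulla, and collecting ducts run through both. The cortex is known for reabsorbing the bulk of the filtrate and for making glucose, and the outer medulla for the active NaCl transport of the TAL, which takes place at low oxygen tension and feeds the concentration of urine.

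Values are CPM, the counts of a gene relative to a library size scaled by edgeR's TMM factors, and follow the order of replicates 1 to 5. A log2 ratio is OM minus Cx, so a negative value means a higher level in Cx, and it comes with its standard error (SE), written after ±. The *P* values are from edgeR's quasi-likelihood F-test with the replicate number as a block, after Benjamini-Hochberg adjustment across the 14295 genes that entered it, and a call means an adjusted *P* under 0.05. They weigh the tissue difference against the spread between these libraries that is left after the effect of replicate number. The 5 Cx libraries held 13953714 to 17048749 counted reads and the 5 OM libraries 12748841 to 14838776, and no library repeated another, as the mean chi-square per gene was at least 7.29 in each of the 20 within-tissue comparisons of libraries.

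The OM libraries were less alike than the Cx libraries, and replicate 2 stood apart. Over all tested genes the median SD of log2 CPM was 0.292 among the OM libraries and 0.143 among the Cx libraries, and it came to 0.219 in OM without replicate 2 and to 0.156 without replicates 2 and 5. OM replicate 2 held the genes of proximal S1-S2 at a median of 16.3% of the mean Cx level, against 2.20% in replicate 1, 3.36% in replicate 3, 2.58% in replicate 4 and 0.413% in replicate 5. Its share was also the highest of the 5 for podocyte genes, at 45.1% against 14.3% to 19.8%, and for genes of the distal convoluted and connecting tubule, at 38.1% against 15.3% to 19.1%. For genes of the TAL it was the lowest, at 276% of the Cx level against 465% to 583%, and for 3 thin limb genes it was 69.5% against 581% to 1141%.

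Proximal S3 genes had the same highest and lowest OM library as the S1-S2 genes, but at other levels. They stood at 532% of the Cx level in OM replicate 2 and at 65.3% in OM replicate 5, with 188% to 302% in the others. Replicate 5 also had the highest shares for TAL genes, principal cells (484%), intercalated cells (139%) and the endothelial list (147%). Among the 1115 genes called at least 2-fold higher in Cx, replicate 2 was the highest OM library for 816 and replicate 5 the lowest for 568, and among the 1167 called at least 2-fold higher in OM, replicate 2 was the lowest for 749 and replicate 5 the highest for 573. The results are given with and without pair 2, which was set apart because its OM library held cortical transcripts in these same data. Leaving it out removes the OM library nearest to Cx for many of the genes below. Larger ratios and smaller *P* values without pair 2 are therefore not independent evidence. The values of replicate 5 stand beside those they touch.

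**Figure D1:**
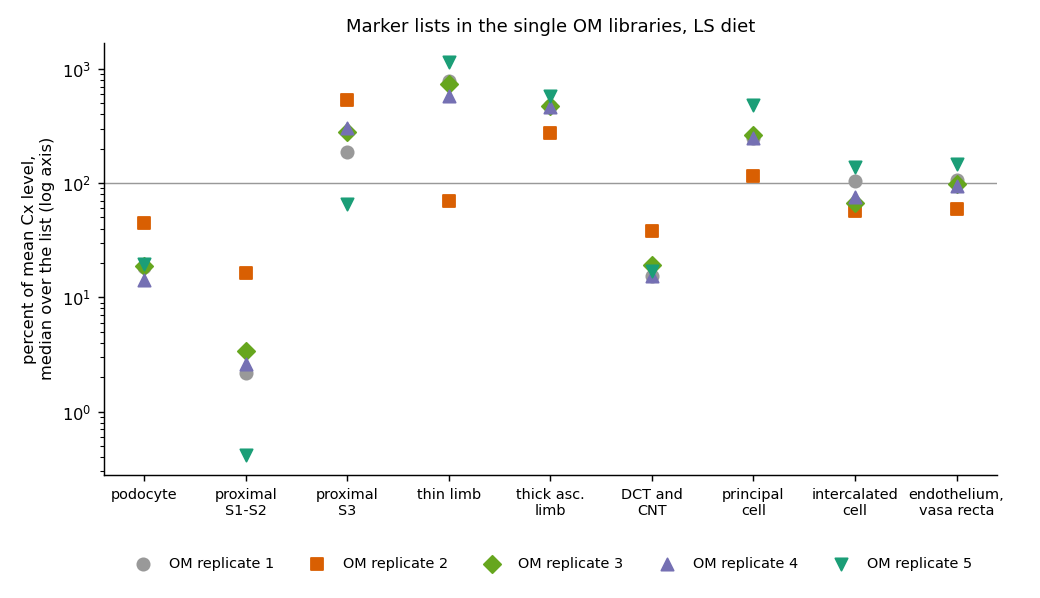
Level of each marker list in each of the 5 OM libraries on the LS diet, as a percent of the mean Cx level (median over the tested genes of the list, log axis, with a line at 100%). Replicate 2 is the highest for podocyte, proximal S1-S2, proximal S3 and distal convoluted and connecting tubule (DCT and CNT) genes and the lowest for the other 5 lists, while replicate 5 is the lowest for both proximal lists, at 0.413% and 65.3%, and the highest for the thin limb, TAL, principal cell, intercalated cell and endothelial lists.

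Of the 14295 genes tested, 2442 (17.1%) were higher in OM and 2569 (18.0%) higher in Cx, 35.1% in all. At least 2-fold differences were called for 1167 genes higher in OM (8.16%) and 1115 higher in Cx (7.80%), and 90 and 131 genes differed at least 16-fold, a log2 ratio of 4 or more. The 5 OM values all lay above the 5 Cx values for 1891 genes (13.2%) and all below for 2255 (15.8%). Scaling by total counts in place of TMM moved the median log2 ratio of all genes from 0.01 to 0.25 and the calls to 4486 higher in OM and 1694 higher in Cx, so the share of calls higher in OM went from 48.7% to 72.6%.

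Without pair 2, 3033 genes (20.9%) were higher in OM and 3131 (21.6%) higher in Cx. Of the 5011 genes called with all pairs, 4725 (94.3%) were called in the same direction without it, 0 changed sign, and 1439 further genes were called. Leaving out any of pairs 1, 3 and 4 cut the counts, to 1328 higher in OM and 1525 in Cx without pair 1, to 1331 and 1565 without pair 3, and to 1345 and 1564 without pair 4, whereas 2372 and 2244 were called without pair 5. With pairs 1, 3 and 4 alone, 3207 were higher in OM and 3344 in Cx. A fit without the replicate block called 3051 (21.3%) and 2794 (19.5%), 40.9% in all, and the fit without pair 2 called 42.6%.

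Lists of 383 genes were set up by nephron segment, other cell type, gene family and metabolic pathway, of which 354 were tested. Of these, 203 were called, beside 35.1% of all genes tested, 71 higher in OM and 132 higher in Cx. Without pair 2, 197 of the 203 kept their call and direction, 6 lost it (*Agtr1b*, *Atp6v1b1*, *Pnpla6*, *Ptger4*, *Slc22a2* and *Slc38a3*, named after their values were seen), 36 others gained one, and 0 were called in opposite directions. Without pair 1, 3, 4 or 5, 66, 65, 65 and 14 of the 203 calls were lost. Log2 ratios in parentheses after a gene name are from all 5 pairs unless another fit is named.

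**Figure D2:**
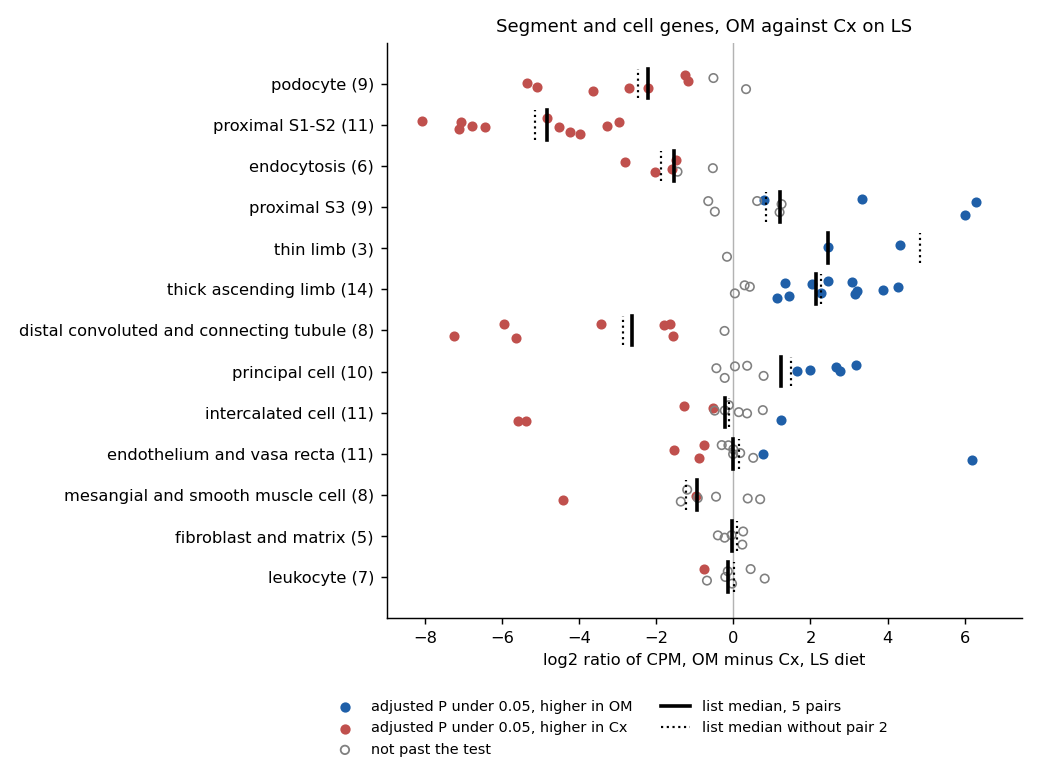
Log2 ratio of CPM, OM minus Cx, for each tested gene of the segment and cell lists on the LS diet (number tested in parentheses). Filled points passed the test in either direction and open points did not, with the list median over 5 pairs as a solid tick and without pair 2 as a dotted tick. Proximal S1-S2 genes all lie below -2.9 and 11 of 14 TAL genes are filled above 1, while the endothelial, fibroblast and leukocyte medians lie within 0.15 of 0.

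Genes of the glomerular podocyte were mostly cortical. Of 9 tested, 7 were higher in Cx and 0 in OM, against 18.0% and 17.1% of all genes, with a median log2 ratio of -2.22 and of -2.47 without pair 2. *Nphs1* (chromosome 1, 88922433 to 88950559 of Rnor_6.0), which encodes the slit diaphragm protein nephrin, stood at 111, 134, 133, 139 and 133 CPM in Cx and 0, 60, 6.45, 5.01 and 0 CPM in OM. The tissues did not overlap, OM replicate 2 held the only OM value above 10 CPM, and replicates 1 and 5 were at 0, where 3 counts would have been 0.180 and 0.198 CPM. Its log2 ratio was -5.11 ± 1.35 (SE, adjusted *P* = 0.029), and -5.98 ± 1.0 (adjusted *P* = 0.0063) without pair 2. *Wt1* (a podocyte transcription factor, -3.65), *Ptpro* (a receptor phosphatase, -2.72) and *Synpo* (synaptopodin, -2.22) were called in the same direction. *Podxl*, which other cells also express, was higher in Cx by a smaller log2 difference, -1.26, and *Plce1* and *Magi2* did not pass (0.33 and -0.52). Without pair 2, *Plce1* was called higher in OM (0.53). In the fits without pair 1, 3 or 4, 5 podocyte genes passed, and the adjusted *P* of *Nphs1* was then 0.077, 0.090 and 0.099.

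All 11 genes of proximal segments S1 and S2 were at least 2-fold higher in Cx, against 7.80% of all genes. None of them overlapped between the tissues, against 15.8% of all genes without overlap and higher in Cx. Their median log2 ratio was -4.85 (-5.15 without pair 2). *Slc5a2*, the gene of the glucose transporter SGLT2 of the early proximal tubule (chromosome 1, 199682688 to 199688809), had 795, 815, 776, 722 and 756 CPM in Cx and 1.45, 62.8, 10.5, 4.76 and 1.32 CPM in OM. Every OM library lay below the Cx range by more than 10-fold, and replicate 2 was the highest of them. Between OM and Cx the log2 difference was -7.07 ± 1.02 (SE, adjusted *P* = 0.0037) and -7.80 ± 0.67 (adjusted *P* = 0.00072) without pair 2. *Slc22a8*, the organic anion transporter OAT3, had 1324, 1425, 1249, 1430.4 and 1352 CPM in Cx and 1.08, 220.5, 26.6, 13 and 0.528 CPM in OM. Here too replicate 2 was the highest OM library and replicates 1 and 5 held almost none, with -7.11 ± 1.55 (SE, adjusted *P* = 0.015) as log2 ratio and -8.08 ± 1.23 (adjusted *P* = 0.0045) without pair 2; without pair 4 its adjusted *P* was 0.062.

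*Slc34a1*, which encodes the phosphate transporter NaPi-IIa (chromosome 17, 9747752 to 9762813), had more of its level left in OM, at 6205, 6692, 6192, 6724 and 6330.3 CPM in Cx and 449.5, 4358, 1299, 1054 and 124 CPM in OM. The tissues did not overlap, but the OM values spread from 124 in replicate 5 to 4358 in replicate 2. Its log2 ratio was -2.96 ± 0.76 (SE, adjusted *P* = 0.026), -3.55 ± 0.64 (adjusted *P* = 0.0083) without pair 2, with adjusted *P* values of 0.096, 0.072 and 0.083 without pair 1, 3 or 4. The others ran from *Slc26a1*, a sulfate transporter (-3.28), and *Slc22a6*, the transporter OAT1 (-3.97), through *Slc2a2* (GLUT2, -4.23), *Gatm*, which makes guanidinoacetate for creatine (-4.54), and *Slc7a7*, a basolateral amino acid transporter (-4.85), to *Slc4a4*, the basolateral Na+ and bicarbonate cotransporter (-6.44), *Slc6a19*, the neutral amino acid transporter B0AT1 (-6.79), and *Slc5a12*, a lactate transporter (-8.08). Without pair 1, 3, 4 or 5, 9, 9, 8 and 11 of the 11 passed. *Slc22a6* lost its call with 1 pair left out, at a highest adjusted *P* of 0.095 without pair 1.

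The apparatus by which the proximal tubule takes up filtered protein was higher in Cx for 4 of 6 genes, beside 18.0% of all genes (median -1.54, and -1.88 with 5 called without pair 2). *Dab2*, an adaptor of the uptake receptors (-2.80), *Clcn5*, the chloride exchanger of endosomes (-2.04), and the receptor genes *Cubn* (-1.58) and *Amn* (-1.49) were called, though only *Dab2* was also called in each fit that left out pair 1, 3 or 4, and *Amn* was not called without the block (adjusted *P* = 0.057). *Lrp2*, the gene of the uptake receptor megalin, had 5610.4, 5581, 5083, 5828 and 5368 CPM in Cx and 2001, 5038, 2905, 2498 and 335 CPM in OM. All OM values lay below the Cx values, from 335 in replicate 5 to 5038 in replicate 2, next to the lowest Cx value of 5083. It did not pass the test (-1.45 ± 0.56, adjusted *P* = 0.090, and -1.81 ± 0.57, adjusted *P* = 0.0501, without pair 2, and adjusted *P* = 0.042 without pair 5). *Clcn5* (0.0537 without pair 1), *Cubn* (0.13 without pair 1) and *Amn* (0.14 without pair 1) lost their calls with 1 pair left out, at these highest adjusted *P* values.

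Some genes of the straight S3 segment were higher in OM, unlike those of S1 and S2. Of 9 genes, 4 were higher in OM and 0 in Cx, against 17.1% and 18.0% of all genes. The median log2 ratio was 1.2 (0.84 without pair 2, when 4 were higher in OM and 1 in Cx, against 20.9% and 21.6%). *Slc7a13*, an S3 transporter of acidic amino acids and cystine (chromosome 5, 33784715 to 33805616), had 46.1, 14.1, 39.2, 95.7 and 117 CPM in Cx and 2765, 6204, 4148, 4485 and 913 CPM in OM. All OM libraries were above all Cx libraries, replicate 2 was the highest and replicate 5 the lowest. On the log2 scale the ratio was 6.01 ± 0.93 (SE, adjusted *P* = 0.0047) and 5.36 ± 0.74 (adjusted *P* = 0.0033) without pair 2. *Agt*, angiotensinogen, had 4.09, 2.50, 2.88, 8.36 and 9.02 CPM in Cx and 34.6, 118, 59.2, 75.1 and 14.6 CPM in OM. Its values followed the same order across the OM libraries, again without overlap, and the OM minus Cx log2 ratio came to 3.34 ± 0.70 (SE, adjusted *P* = 0.013) and 2.79 ± 0.60 (adjusted *P* = 0.015) without pair 2; without pair 1, 3 or 4 its adjusted *P* was 0.0507, 0.055 and 0.0535.

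*Slc22a7*, the organic anion transporter OAT2 (6.29), and *Cyp7b1*, a sterol hydroxylase (0.79), were the others called. The glucose transporter SGLT1, encoded by *Slc5a1*, did not pass, at 19.6, 20.5, 19.8, 20.3 and 19.2 CPM in Cx and 24.1, 85.8, 41.6, 34.5 and 7.59 CPM in OM. Here 4 OM libraries lay above all Cx libraries and replicate 5 below them all (0.62 ± 0.46, adjusted *P* = 0.33, and 0.24 ± 0.40, adjusted *P* = 0.66, without pair 2, and a call with adjusted *P* = 0.033 without pair 5). *Slc3a1*, *Ggt1* and *Slc1a1*, which act in the uptake of cystine, glutathione and glutamate, and *Aqp7* had log2 ratios of 1.2, 1.25, -0.48 and -0.65, none past the test, and *Slc1a1* was called higher in Cx without pair 2 (-0.71). Without pair 5, 7 of the 9 S3 genes were higher in OM, and without pair 1, 3 or 4, 3, 2 and 2. *Cyp7b1* lost its call with 1 pair left out, at a highest adjusted *P* of 0.073 without pair 3.

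Genes of glucose production were mostly cortical. Of 10 genes of gluconeogenesis and fructose use, 7 were higher in Cx and 1 in OM, beside 18.0% and 17.1% of all genes (median -2.01, and -2.39 with the same counts without pair 2). *Pck1*, the cytosolic phosphoenolpyruvate carboxykinase that sets the rate of gluconeogenesis (chromosome 3, 171213936 to 171219871), had 8259, 9754, 11247, 10423 and 12246 CPM in Cx and 180.1, 2405, 623, 650.2 and 36 CPM in OM. The tissues did not overlap, and OM ranged from 36 in replicate 5 to 2405 in replicate 2. Its log2 ratio was -4.69 ± 0.99 (SE, adjusted *P* = 0.014), -5.38 ± 0.90 (adjusted *P* = 0.0063) without pair 2, with an adjusted *P* of 0.057 without pair 1 and 0.0512 without pair 3. *G6pc*, the last enzyme of glucose release (-3.88, a symbol with 2 gene entries of which the tested one is given), its partner transporter *Slc37a4* (-2.03), *Fbp1* (-2.54) and *Pc*, pyruvate carboxylase (-1.93), were also called, as was *Fbp2* (-1.99), at under 6 CPM and not without the block (adjusted *P* = 0.056). The mitochondrial isoform *Pck2* was slightly higher in OM (0.37), and the fructose enzymes *Khk* and *Tkfc* did not pass (-0.25 and -0.13). Only 3, 3 and 4 of the 7 cortical calls were made without pair 1, 3 or 4. *Fbp1* (0.090 without pair 1), *Fbp2* (0.14 without pair 1) and *Pck2* (0.076 without pair 1) lost their calls with 1 pair left out, at these highest adjusted *P* values.

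Of 19 genes of amino acid and ammonia metabolism, 10 were higher in Cx and 3 in OM, beside 18.0% and 17.1% of all genes. The count in OM was near that share. The median was -0.99, and without pair 2 the counts were 11 and 2. The cortical group held *Prodh2*, a hydroxyproline oxidase (-5.38), *Gldc* of the glycine cleavage system (-4.82), *Phgdh*, the entry to serine synthesis (-3.32), the arginine-making enzymes *Ass1* (-3.24) and *Asl* (-2.37), and the cystine transporter gene *Slc7a9* (-2.86). *Arg2*, mitochondrial arginase (2.54), *Prodh*, proline oxidase (1.07), and *Slc38a3*, a glutamine transporter (2.06), were higher in OM, the last not without pair 2 (adjusted *P* = 0.0536). The ammonia-forming enzyme gene *Glud1* was higher in Cx (-0.99), whereas *Glul* (0.21) did not pass. With pair 1, 3 or 4 removed, 2 genes were higher in OM each time and 6, 7 and 6 in Cx. *Slc38a3* (0.13 without pair 1) and *Glud1* (0.080 without pair 1) lost their calls with 1 pair left out, at these highest adjusted *P* values.

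Of 17 organic ion and drug transporters, 8 were higher in Cx and 4 in OM, beside 18.0% and 17.1% of all genes. The median was -1.21. Without pair 2 the counts were 9 and 3, beside 21.6% and 20.9% of all genes. The counts in OM were near these shares. *Slc22a2*, the cation transporter OCT2, had 146, 161, 160.4, 213 and 257 CPM in Cx and 520.3, 1396, 838, 834 and 200.1 CPM in OM. Its OM values were above all Cx values in replicates 1 to 4 and within the Cx range in replicate 5. The log2 ratio was 1.84 ± 0.50 (SE, adjusted *P* = 0.032), and 1.49 ± 0.49 (adjusted *P* = 0.055) without pair 2, with adjusted *P* of 0.10, 0.11 and 0.10 without pair 1, 3 or 4. The peptide transporters split: *Slc15a1* (PEPT1, of high capacity) was higher in Cx (-6.52) and *Slc15a2* (PEPT2, of high affinity) in OM (2.21). *Slco4c1* (3.94) and the prostaglandin transporter *Slco2a1* (0.88) were higher in OM, and *Slc13a1* (sulfate, -5.93), *Slc13a3* (dicarboxylates, -4.37), *Slc22a5* (carnitine, -2.58) and the efflux pump *Abcc2* (-2.29) in Cx. Without pair 1, 3 or 4, 6 were higher in Cx each time and 3, 2 and 2 in OM. *Slc15a2* (0.0502 without pair 4) and *Slc13a3* (0.12 without pair 1) lost their calls with 1 pair left out, at these highest adjusted *P* values.

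Most genes of the thick ascending limb were higher in OM. Of 14 genes tested, 11 were at least 2-fold higher in OM, against 8.16% of all genes, and 0 higher in Cx. The median log2 ratio was 2.15 (12 of 14 higher in OM and 2.27 without pair 2). Without pair 1, 3, 4 or 5, 11 passed each time. *Slc12a1*, the Na-K-2Cl cotransporter NKCC2 on which loop diuretics act (chromosome 3, 117421604 to 117498367), had 323, 285, 342, 375 and 359 CPM in Cx and 5877, 2300.5, 5556, 5448 and 6989.9 CPM in OM. Every OM library exceeded every Cx library by more than 6-fold, and replicate 2 was the lowest of them. Between OM and Cx the log2 difference was 3.88 ± 0.24 (SE, adjusted *P* = 0.00030) and 4.08 ± 0.15 (adjusted *P* = 0.00010) without pair 2.

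*Umod*, uromodulin, the protein that the TAL secretes into urine, had 1121, 857, 1102, 1173 and 1406 CPM in Cx and 10819, 7375, 9991, 10854 and 13178 CPM in OM. The groups were far apart, with replicate 2 again the lowest of OM, and the OM minus Cx log2 ratio came to 3.20 ± 0.15 (SE, adjusted *P* = 0.00016) and 3.21 ± 0.14 (adjusted *P* = 0.00012) without pair 2. *Casr*, the calcium-sensing receptor, differed less, at 72.1, 58.2, 69.4, 73.1 and 63.7 CPM in Cx and 146, 164, 159, 141 and 122 CPM in OM, and replicate 2 was here the highest OM library. Its log2 ratio was 1.12 ± 0.10 (SE, adjusted *P* = 0.00092), 1.01 ± 0.08 (adjusted *P* = 0.00052) without pair 2, and it was called on LS but not at HS14 (0.72) or HS21 (0.06), a difference between diets that was not tested.

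Other genes of this segment varied. *Bsnd*, which encodes the chloride channel subunit barttin, had 79.7, 95.8, 85.2, 88.2 and 84.4 CPM in Cx and 107, 66.9, 80.5, 80.0 and 119 CPM in OM. The tissues overlapped, and the log2 ratio, which did not pass, was 0.04 ± 0.16 (SE, adjusted *P* = 0.88). Intercalated cells also use this subunit. The paracellular cation pore genes *Cldn16* (2.26) and *Cldn19* (3.14), *Cldn10* (1.34), the K+ channel *Kcnj1* (2.04), the prostaglandin receptor *Ptger3* (1.44), the phosphatase inhibitor *Ppp1r1a* (2.45) and *Tmem207* (3.07) were all called higher in OM. *Egf* passed without pair 2 (0.55) but not with all pairs (0.43).

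Thin limb genes stood low in OM replicate 2. *Slc4a11*, a membrane transporter of the thin descending limb, had 3.18, 3.35, 2.58, 2.74 and 3.49 CPM in Cx and 82.8, 10.5, 79.5, 77.8 and 109 CPM in OM. Replicate 2 lay far below the other OM libraries but above all Cx libraries, with 4.31 ± 0.54 (SE, adjusted *P* = 0.0024) as log2 ratio and 4.85 ± 0.09 (adjusted *P* = 5.2e-05) without pair 2. *Bst1* was called (2.46, 3.01 without pair 2), and *Epha7* was not (-0.17). *Slc14a2*, the tubular urea transporter UT-A, was at 0 in all 5 Cx libraries and in OM replicate 2, and at 165, 135, 89.4 and 511 CPM in OM replicates 1, 3, 4 and 5 (a symbol with 2 gene entries, of which the measured one is given). *Corin*, the protease that activates atrial natriuretic peptide, was likewise at 0 in OM replicate 2 and in 4 Cx libraries, at 0.0635 CPM in the fifth and at 20.8, 19.6, 10.8 and 21.2 CPM in the other OM libraries. Both were below the filter on low counts when all pairs were used, and both were tested and called higher in OM without pair 2. A count of 3, the limit set for a value of 0, was 0.190 to 0.234 CPM in the Cx libraries and 0.254 CPM in OM replicate 2. *Bst1* lost its call with 1 pair left out, at a highest adjusted *P* of 0.10 without pair 1.

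**Figure D3:**
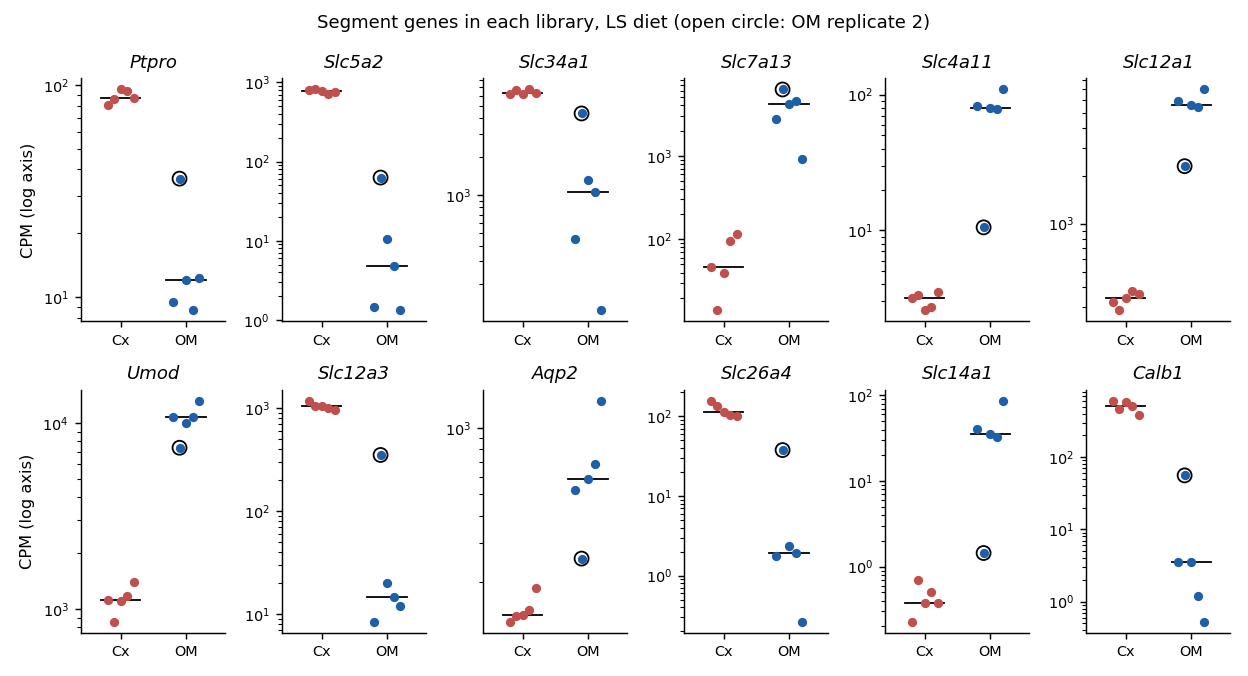
CPM (log axes, a scale of its own in each panel) of 12 segment genes in the 5 Cx and 5 OM libraries on the LS diet, with a bar at the median and an open circle round OM replicate 2. The circled library is the OM value nearest to Cx for every gene shown but Slc7a13, where it is the highest of all at 6204 CPM and replicate 5 the lowest of OM at 913 CPM.

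Genes of the distal convoluted and connecting tubule were mostly cortical. Of 8 tested, 7 were at least 2-fold higher in Cx, against 7.80% of all genes, and 0 higher in OM (median -2.62, and -2.87 without pair 2). All 7 were also called without each pair in turn. *Slc12a3*, the thiazide-sensitive NaCl cotransporter (chromosome 19, 11106033 to 11144641), had 1179, 1054, 1061, 1012 and 968 CPM in Cx and 8.43, 351, 20, 14.6 and 11.9 CPM in OM. The other OM libraries held at most 20 CPM, and replicate 2 lay between the groups. Its log2 ratio was -5.64 ± 0.96 (SE, adjusted *P* = 0.0063) and -6.33 ± 0.28 (adjusted *P* = 0.00014) without pair 2. *Calb1*, the calcium-binding protein calbindin of these cells, had 600.3, 469.5, 570.3, 514 and 381 CPM in Cx and 3.55, 55.9, 3.57, 1.19 and 0.528 CPM in OM. No OM library came near the Cx range, and replicate 2 was the highest, and the OM minus Cx log2 ratio came to -7.25 ± 1.09 (SE, adjusted *P* = 0.0042) and -8.06 ± 0.45 (adjusted *P* = 0.00021) without pair 2. The calcium channel *Trpv5* (-5.96), the calcium exchanger *Slc8a1* (-3.44), *Kl*, the coreceptor klotho (-1.80), the magnesium channel *Trpm6* (-1.64) and *S100g*, at under 2.3 CPM (-1.57), followed. The kinase gene *Wnk4* did not pass (-0.23), and *Pvalb* was at 0 in every LS library.

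Further genes of calcium, phosphate and vitamin D handling were likewise mostly higher in Cx. The counts were 8 of 12 in Cx and 1 in OM, beside 18.0% and 17.1% of all genes (median -1.67, with 8 and 1 called without pair 2). *Slc34a3*, the phosphate transporter NaPi-IIc (-6.68), *Pth1r*, the parathyroid hormone receptor (-2.03), *Vdr*, the vitamin D receptor (-1.90), and both vitamin D hydroxylases, the activating *Cyp27b1* (-5.78, at 4.21 to 9.08 CPM in Cx) and the inactivating *Cyp24a1* (-4.88), were called, *Cyp24a1* not without the block (adjusted *P* = 0.063). The phosphate transporter *Slc20a2* was the member higher in OM (0.41). The number higher in Cx was 5 without pair 1, 3 or 4. *Cyp24a1* lost its call with 1 pair left out, at a highest adjusted *P* of 0.12 without pair 4.

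Collecting duct genes went in both directions. Of 10 principal cell genes, 5 were at least 2-fold higher in OM, against 8.16% of all genes, and 0 higher in Cx (median 1.22). Without pair 2, 7 were higher in OM (median 1.5), and without pair 1, 3, 4 or 5, 5 were. *Aqp2*, the vasopressin-regulated water channel (chromosome 7, 141237768 to 141245165), had 132, 140.2, 142, 150.2 and 189 CPM in Cx and 523, 256, 589.8, 686 and 1328 CPM in OM. The groups did not overlap, with OM replicate 2 nearest to Cx and replicate 5 the highest. Its log2 ratio was 1.99 ± 0.28 (SE, adjusted *P* = 0.0032) and 2.25 ± 0.17 (adjusted *P* = 0.00046) without pair 2. The vasopressin receptor *Avpr2* (1.66), the water channel *Aqp4* (3.18), *Fxyd4*, a regulator of Na-K-ATPase (2.67), and the transcription factor *Elf5* (2.76, at under 3 CPM) were called with it. *Aqp3* passed only when pair 2 was left out among the fits with 1 pair removed (1.08, and 0.78 with all pairs).

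The epithelial Na+ channel did not share this pattern. *Scnn1b*, its beta subunit, had 46.5, 51.5, 50.2, 42.8 and 43.5 CPM in Cx and 27.2, 29.5, 30.5, 32.1 and 62.3 CPM in OM. In OM, 4 libraries lay below every Cx value and replicate 5 above them all, and the test was not passed (-0.44 ± 0.21, adjusted *P* = 0.15, and -0.36 ± 0.23, adjusted *P* = 0.25, without pair 2), whereas without pair 5 it was called higher in Cx (log2 ratio -0.65, adjusted *P* = 0.0055). *Scnn1a* (0.36), *Scnn1g* (0.04) and *Hsd11b2*, which shields the mineralocorticoid receptor from corticosterone (-0.23), did not pass either, and *Scnn1a* was called higher in OM without pair 2 (0.47).

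Intercalated cell genes had a median log2 ratio near 0 (-0.22, -0.10 without pair 2 and 0.01 when scaled by total counts). Of 11, 4 were higher in Cx and 1 in OM, beside 18.0% and 17.1% of all genes. *Slc26a4*, pendrin, the anion exchanger of the type B cell, which secretes bicarbonate (chromosome 6, 50808923 to 50846965), had 156, 134, 114, 103 and 102 CPM in Cx and 1.75, 37.7, 2.38, 1.94 and 0.264 CPM in OM. Replicate 2 was the only OM library above 3 CPM, and the log2 ratio was -5.39 ± 0.93 (SE, adjusted *P* = 0.0068) and -6.28 ± 0.40 (adjusted *P* = 0.00032) without pair 2. *Insrr*, an alkali-sensing receptor kinase of the same cells, was similar (-5.59), and *Slc4a9* of their basolateral membrane was higher in Cx by less (-1.29).

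*Slc4a1*, the basolateral anion exchanger AE1 of the acid-secreting type A cell, had 355, 420.0, 412, 326 and 333 CPM in Cx and 753, 340.1, 588, 529.5 and 1178 CPM in OM. Apart from replicate 2 the OM values lay above the Cx values. On the log2 scale the ratio was 0.76 ± 0.30 (SE, adjusted *P* = 0.091) and passed without pair 2 (1.01 ± 0.23, adjusted *P* = 0.018). *Aqp6*, a channel of type A vesicles, was higher in OM (1.24). Genes that both types use did not pass, with log2 ratios of -0.12 for the transcription factor *Foxi1*, -0.22 and -0.49 for the proton pump subunits *Atp6v0d2* and *Atp6v1g3*, and 0.35 and 0.14 for the ammonia transporters *Rhcg* and *Rhbg*. The pump subunit *Atp6v1b1* was called higher in Cx (-0.53), but neither without pair 2 (adjusted *P* = 0.063) nor when scaled by total counts. *Aqp6* (0.087 without pair 1) and *Atp6v1b1* (0.13 without pair 4) lost their calls with 1 pair left out, at these highest adjusted *P* values.

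Across whole families, 4 of 7 aquaporins tested were higher in OM and 0 in Cx, beside 17.1% and 18.0% of all genes. The 4 added *Aqp1* of the proximal tubule and thin descending limb (0.71), and *Aqp11* was called higher in Cx without pair 2 (-1.61). Of 9 claudins, 6 were higher in OM and 1 in Cx, beside the same shares (8 and 2 of 10 without pair 2). The 6 included *Cldn3* (3.0), *Cldn4* (1.82) and *Cldn7* (1.18), the first of them not overlapping, and the cortical member was *Cldn1* (-1.04), which was not called when scaled by total counts. The main beta subunit of Na-K-ATPase, *Atp1b1*, did not pass (-0.03), whereas the minor beta subunit *Atp1b3* (0.84) and the regulators *Fxyd4* and *Fxyd6* (1.65) were higher in OM. In the fits without pair 1, 3 or 4, 4 claudins and 2 aquaporins were higher in OM. *Aqp1* (0.077 without pair 3), *Cldn4* (0.067 without pair 1), *Cldn7* (0.062 without pair 1) and *Cldn1* (0.080 without pair 3) lost their calls with 1 pair left out, at these highest adjusted *P* values.

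Transcription factors known for segment identity were called in both directions. Of 24 tested, 11 were higher in OM and 5 in Cx, beside 17.1% and 18.0% of all genes, so the count in Cx was near that share. Without pair 2 the counts were 14 and 7, beside 20.9% and 21.6% of all genes. *Maf*, a factor of the proximal tubule, had 245, 262, 202, 234 and 226 CPM in Cx and 9.39, 39.1, 15.1, 10.8 and 13.7 CPM in OM. OM lay far below Cx in every library, and the OM minus Cx log2 ratio came to -3.94 ± 0.31 (SE, adjusted *P* = 0.00058) and -4.24 ± 0.19 (adjusted *P* = 0.00013) without pair 2. *Ppara*, the receptor that drives fatty acid oxidation genes, had 61.8, 69.1, 84.6, 72.2 and 71.3 CPM in Cx and 15.6, 14.1, 18.1, 15 and 13.7 CPM in OM. Its OM values were close together, replicate 2 included, and the OM minus Cx log2 ratio came to -2.23 ± 0.08 (SE, adjusted *P* = 0.00010) and -2.23 ± 0.09 (adjusted *P* = 0.00012) without pair 2. *Irx1*, an Iroquois factor of the loop of Henle, had 4.92, 5.46, 7.35, 9.51 and 7.31 CPM in Cx and 91.5, 66.2, 91.0, 91.5 and 111 CPM in OM. The OM values were at least 6-fold above each Cx value, and the OM minus Cx log2 ratio came to 3.72 ± 0.15 (SE, adjusted *P* = 0.00014) and 3.73 ± 0.17 (adjusted *P* = 0.00015) without pair 2.

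*Irx2* (3.66), the estrogen-related receptors *Esrrb* (2.27) and *Esrrg* (0.91), *Grhl2* (2.0), *Tfap2b* (1.68), *Pou3f3* (1.40), *Sim1* (1.35), *Pax2* (1.22) and *Pax8* (0.89) were higher in OM. The proximal regulator *Hnf4a* was higher in Cx (-1.61, at 1079 to 1205 CPM in Cx and from 96.3 CPM in OM replicate 5 to 1004 CPM in replicate 2), as were *Lhx1* (-1.66) and *Tfcp2l1* (-0.80). With pair 1, 3 or 4 removed, 10 factors were higher in OM and 4 in Cx. *Hnf4a* lost its call with 1 pair left out, at a highest adjusted *P* of 0.14 without pair 1.

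The endothelial list as a whole had a median log2 ratio of -0.01 (0.13 without pair 2 and 0.23 when scaled by total counts), with 2 of 11 higher in OM and 3 in Cx, shares near the 17.1% and 18.0% of all genes. *Slc14a1*, the urea transporter UT-B of descending vasa recta and red cells (chromosome 18, 74461055 to 74485139), had 0.227, 0.702, 0.379, 0.504 and 0.381 CPM in Cx and 40.3, 1.44, 35.7, 33.0 and 86.5 CPM in OM. OM replicate 2 was close to Cx although still above it, and the log2 ratio was 6.18 ± 0.84 (SE, adjusted *P* = 0.0030) and 6.96 ± 0.27 (adjusted *P* = 0.00011) without pair 2. *Kdr*, the VEGF receptor abundant in glomerular and peritubular capillaries, had 165, 156, 166, 179 and 175 CPM in Cx and 61.8, 52.5, 59.9, 50.1 and 66.1 CPM in OM. The OM libraries lay at less than 70 CPM throughout, replicate 2 among them, and the log2 ratio was -1.54 ± 0.09 (SE, adjusted *P* = 0.00028) and -1.54 ± 0.10 (adjusted *P* = 0.00034) without pair 2.

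*Vwf*, von Willebrand factor of larger vessels, had 58.4, 44.5, 52.0, 69.1 and 57.1 CPM in Cx and 74.7, 142, 93.3, 113 and 67.5 CPM in OM. Replicate 2 was the highest library and replicate 5 lay within the Cx range. The log2 ratio was 0.76 ± 0.21 (SE, adjusted *P* = 0.034), 0.53 ± 0.12 (adjusted *P* = 0.018) without pair 2, and adjusted *P* was 0.062, 0.11 and 0.097 without pair 1, 3 or 4. *Ehd3* of glomerular endothelium (-0.90) and *Flt1* (-0.77) were higher in Cx. The pan-endothelial genes *Cdh5* (0.00), *Emcn* (-0.01), *Tek* (-0.13) and *Eng* (-0.30) did not pass.

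Smooth muscle genes were high in OM replicate 2: *Myh11*, smooth muscle myosin, had 41.0, 50.4, 54.9, 59.2 and 53.9 CPM in Cx and 8.49, 136, 27.5, 13.8 and 9.37 CPM in OM. With that library the test was not passed (-1.36 ± 0.62, adjusted *P* = 0.14), and without pair 2 it was, higher in Cx (-1.97 ± 0.26, adjusted *P* = 0.0030). *Acta2* behaved alike, at 54.2 CPM in OM replicate 2, 7.08 to 15.3 CPM in the other OM libraries and 22.5 to 32.1 CPM in Cx, and was called only without pair 2 among the fits with 1 pair removed (-1.44). In all, 2 of 8 genes of the mesangial and smooth muscle cell list were higher in Cx (among them *Itga8*, -0.96), beside 18.0% of all genes. Without pair 2, 4 were higher in Cx, beside 21.6% of all genes. *Tagln* and *Des* of this list had positive log2 ratios in each refit on LS. *Tagln* was not called with all pairs or without pair 2 (0.47, adjusted *P* = 0.055). It was called higher in OM without pair 4 (0.88, adjusted *P* = 0.039) and without the block. When scaled by total counts, *Tagln* and *Des* were both called higher in OM.

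The lists of other cells were short, and their calls stand beside 35.1% of all genes tested. Of 5 fibroblast and matrix genes 0 passed (median -0.05, but 0.09 without pair 2 and 0.19 when scaled by total counts), and of 7 leukocyte genes 1 did, *Cd74*, higher in Cx (-0.75) but not when scaled by total counts (median of the list -0.15, but 0.01 without pair 2 and 0.09 when scaled by total counts). Without pair 2, *Csf1r* (0.71) and *Lyz2* (1.08), both of macrophages, were called higher in OM, beside *Cd74* in Cx, and when scaled by total counts 1 leukocyte gene, *Lyz2*, was higher in OM and 0 in Cx. The summed leukocyte genes spanned 1003 to 1141 CPM in Cx and 437 to 1311 CPM in OM, with the lowest in OM replicate 2. Urothelial genes, which would come from the lining of the renal pelvis, summed to at most 9.78 CPM in any OM library and 0.702 CPM in Cx. The most abundant of them, *Upk1a*, stood at 0.424 to 6.76 CPM in OM, lowest in replicate 2, and was tested and called higher in OM only without pair 2 (5.0). Both adipocyte-list genes tested were higher in OM, *Adipoq* at 9.17 to 16.9 CPM (1.26) and *Cidec* at 11.7 to 122 CPM (3.70), the latter highest in replicate 2 and lowest in replicate 5. *Plin1*, a defining gene of fat cells, was at most 1.36 CPM in any library. *Cd74* lost its call with 1 pair left out, at a highest adjusted *P* of 0.12 without pair 4.

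Among 16 vasoactive genes, 3 were higher in OM and 4 in Cx (4 and 2 without pair 2), shares near the 17.1% and 18.0% of all genes. *Ace*, angiotensin-converting enzyme (2.56 ± 0.42, adjusted *P* = 0.0058), *Ptgs1*, a cyclooxygenase (2.24 ± 0.39, adjusted *P* = 0.0067), and *Ptger1* (0.77) were higher in OM. The natriuretic peptide clearance receptor *Npr3* (-1.75), the prostaglandin receptor *Ptger4* (-0.98) and the angiotensin receptors *Agtr1a* (-0.87) and *Agtr1b* (-0.62) were higher in Cx, of which *Npr3* alone was also called when scaled by total counts. Without pair 1, 3 or 4, 2 were higher in OM each time and 1, 2 and 1 in Cx. *Nos1*, *Ptgs2*, *Ednra*, *Ednrb* and *Npr1* did not pass, with log2 ratios between -0.82 and 0.12. *Ptger1* (0.15 without pair 1), *Ptger4* (0.15 without pair 1), *Agtr1a* (0.0523 without pair 1) and *Agtr1b* (0.13 without pair 3) lost their calls with 1 pair left out, at these highest adjusted *P* values.

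Genes of energy metabolism differed by pathway. Of 16 glycolysis genes, 5 were higher in OM and 5 in Cx, beside 17.1% and 18.0% of all genes (median 0.06, -0.01 without pair 5 and 0.29 when scaled by total counts). *Hk1*, the hexokinase that commits glucose to use, had 45.5, 41.0, 53.4, 43.6 and 44.4 CPM in Cx and 190.4, 97.4, 187, 170.5 and 229.8 CPM in OM. Replicate 2 was the lowest OM library and still above Cx, and the OM minus Cx log2 ratio came to 1.90 ± 0.17 (SE, adjusted *P* = 0.00077) and 2.04 ± 0.11 (adjusted *P* = 0.00021) without pair 2. *Pkm*, pyruvate kinase of the muscle type, had 129.7, 126, 125, 104 and 102 CPM in Cx and 406, 291, 393, 364 and 489 CPM in OM (a symbol with 2 gene entries, the tested one given). The tissues did not overlap, and the log2 ratio was 1.72 ± 0.16 (SE, adjusted *P* = 0.00089) and 1.83 ± 0.13 (adjusted *P* = 0.00043) without pair 2. *Ldha*, which makes lactate, had 167, 159, 152, 163 and 158 CPM in Cx and 238, 226, 231, 247 and 281 CPM in OM. The 5 OM values were within 226 to 281, all above Cx (0.61 ± 0.08, adjusted *P* = 0.0033, and 0.62 ± 0.08, adjusted *P* = 0.0032, without pair 2).

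*Pfkp* (2.09) and *Hk2* (0.95) completed the group higher in OM. Of the genes higher in Cx, 4 encode enzymes that glycolysis shares with gluconeogenesis. *Eno1*, enolase, had 1733, 1744, 1779, 1808 and 1799 CPM in Cx and 788, 1339.8, 926, 789.9 and 700.5 CPM in OM. All OM values lay below Cx with replicate 2 the nearest (-1.0 ± 0.17, adjusted *P* = 0.0063, and -1.17 ± 0.12, adjusted *P* = 0.0011, without pair 2). *Gapdh* (-0.83), *Pgk1* (-0.61) and *Pgam1* (-0.54) went with it, and so did *Ldhb*, the lactate dehydrogenase subunit of oxidative tissue (-0.64), which was not called when scaled by total counts. Other shared enzymes did not pass, with 0.07 for *Gpi*, -0.27 for *Aldoa* and -0.68 for *Tpi1*. In the fits without pair 1, 3 or 4, 5 genes were higher in OM and 3 in Cx. *Pgam1* (0.056 without pair 1) and *Ldhb* (0.12 without pair 3) lost their calls with 1 pair left out, at these highest adjusted *P* values.

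Of 20 genes of the TCA cycle and its entry, 15 were higher in Cx and 0 in OM, beside 18.0% and 17.1% of all genes. The median log2 ratio was -0.47 (15 and -0.54 without pair 2, and -0.23 when scaled by total counts). *Suclg2*, a subunit of succinyl-CoA ligase, differed most, at 574, 616, 602, 574 and 594 CPM in Cx and 252, 442, 303, 314 and 246 CPM in OM. No OM value reached a Cx value (-0.96 ± 0.14, adjusted *P* = 0.0038, and -1.09 ± 0.11, adjusted *P* = 0.0010, without pair 2). The other 14 calls lay between -0.88 (*Suclg1*) and -0.27 (*Dlat*), each less than 2-fold. Citrate synthase, *Cs*, did not pass (-0.07), nor did *Idh2* (0.16), *Dld*, *Sdhd* or *Pdhb*. Without pair 1, 3, 4 or 5, 9, 9, 9 and 11 were higher in Cx. When scaled by total counts, 10 were higher in Cx and 1, *Pdhb*, in OM. *Dlat* lost its call with 1 pair left out, at a highest adjusted *P* of 0.15 without pair 1.

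Subunits of the respiratory chain and ATP synthase differed little. Of 22 encoded in the nucleus, 7 were higher in Cx and 0 in OM, beside 18.0% and 17.1% of all genes (median -0.24, -0.0031 when scaled by total counts). The 7 included *Ndufs1* of complex I (-0.35), *Uqcrfs1* of complex III (-0.43), *Cox5a* of complex IV (-0.36) and *Atp5o* of ATP synthase (-0.50). In Cx, 9 were higher without pair 2, beside 21.6% of all genes, and 1 without pair 1, 3 or 4. When scaled by total counts, 3 were higher in OM (*Ndufb10*, *Ndufb8* and *Ndufv1*) and 1 in Cx (*Atp5o*). Of 13 encoded in the mitochondrial genome, 1 passed (*Mt-atp8*, -0.37), beside 35.1% of all genes. Of the same 13, 10 did not overlap between the tissues, against 29.0% of all genes (median log2 ratio -0.37, -0.14 when scaled by total counts). The number higher in Cx was 3 without pair 2, 5 without the block and 0 when scaled by total counts, with 0 higher in OM each time. *Mt-co1* of complex IV stood at 53685, 50186, 46800.5, 49384 and 45930.5 CPM in Cx and 28808, 45113, 35226, 36601 and 32178 CPM in OM. All OM values lay below the Cx values, replicate 2 the nearest, and the OM minus Cx log2 ratio came to -0.48 ± 0.24 (SE, adjusted *P* = 0.17) and -0.57 ± 0.19 (adjusted *P* = 0.060) without pair 2. *Ndufs1* (0.12 without pair 1), *Uqcrfs1* (0.076 without pair 1), *Cox5a* (0.069 without pair 4) and *Mt-atp8* (0.12 without pair 1) lost their calls with 1 pair left out, at these highest adjusted *P* values.

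Of 16 genes of mitochondrial fatty acid oxidation, 7 were higher in Cx and 0 in OM, beside 18.0% and 17.1% of all genes (median -0.46). In Cx, 11 were higher without pair 2, beside 21.6% of all genes, and 3 without pair 1, 3 or 4. When scaled by total counts, 6 were higher in Cx and 1 in OM (*Acadm*), with a median of -0.22. *Acaa2*, the thiolase of its last step, had 428, 365, 391, 328 and 296 CPM in Cx and 118, 107, 94.0, 76.5 and 89.4 CPM in OM. All OM libraries, replicate 2 included, lay below 120 CPM (-1.90 ± 0.10, adjusted *P* = 0.00020, and -1.95 ± 0.10, adjusted *P* = 0.00018, without pair 2). *Hadh* (-1.10), *Decr1* (-0.83) and *Cpt2* (-0.69) were also higher in Cx, while *Cpt1a*, the carnitine shuttle enzyme at the entry (0.00), and *Acadm* (0.24) did not pass. Of 12 peroxisomal genes, 4 were higher in Cx and 1 in OM, beside 18.0% and 17.1% of all genes. Those in Cx were led by *Decr2* (-2.34), and the 1 in OM was the branched-chain oxidase *Acox2* (2.19). *Acox2* stood at 6.99 CPM in OM replicate 5 and 20.4 to 51.0 CPM in the other OM libraries. Without pair 1, 3 or 4, 2 peroxisomal genes were higher in Cx and 1 in OM, and when scaled by total counts 4 and 3. *Decr1* lost its call with 1 pair left out, at a highest adjusted *P* of 0.099 without pair 1.

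The genes of ketone and lactate handling gave 4 of 8 higher in Cx and 2 in OM, beside 18.0% and 17.1% of all genes. *Slc16a1*, the monocarboxylate transporter MCT1, had 234, 137, 109, 119 and 72.2 CPM in Cx and 8.97, 11.1, 9.45, 10.6 and 13.2 CPM in OM. OM values were close together and replicate 2 stood among them, and the OM minus Cx log2 ratio came to -3.56 ± 0.32 (SE, adjusted *P* = 0.00081) and -3.55 ± 0.37 (adjusted *P* = 0.0013) without pair 2. *Slc5a8*, a lactate and ketone transporter (-1.98), was higher in Cx, and *Slc16a7*, the transporter MCT2 (1.53), and *Bdh1*, which interconverts the ketone bodies (1.64), in OM. *Slc5a8* lost its call with 1 pair left out, at a highest adjusted *P* of 0.13 without pair 1.

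**Figure D4:**
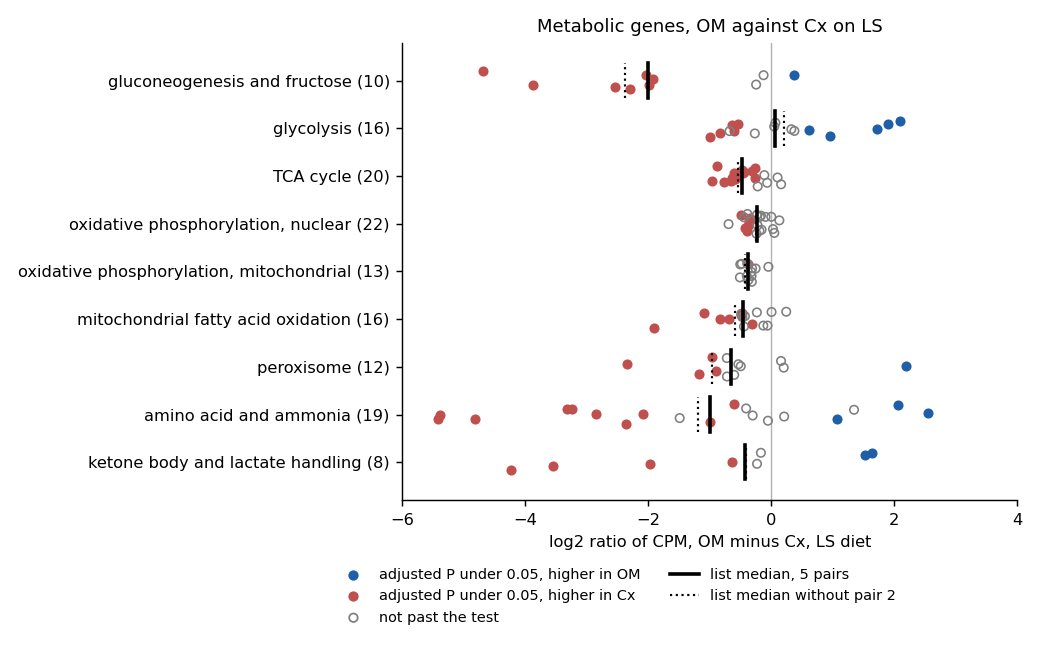
Log2 ratio of CPM, OM minus Cx, for each tested gene of 9 metabolic lists on the LS diet (number tested in parentheses), drawn as in the plot of segment lists. Gluconeogenesis has the lowest median, -2.01, TCA cycle and respiratory chain genes crowd between -1 and 0.2, and glycolysis has 5 filled points on each side.

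Genes of osmolyte handling and tonicity were higher in OM for 4 of 8 and in Cx for 2, beside 17.1% and 18.0% of all genes. The counts were the same without pair 2, and 2 and 2 without pair 1, 3 or 4. *Slc6a12*, the betaine transporter by which medullary cells gather osmolytes (chromosome 4, 153921115 to 153941391), had 1.21, 1.25, 1.90, 1.01 and 1.14 CPM in Cx and 41.5, 4.5, 44.0, 38.6 and 65.0 CPM in OM. Replicate 2 was more than 8-fold below the next lowest OM library and above Cx. Between OM and Cx the log2 difference was 4.66 ± 0.54 (SE, adjusted *P* = 0.0018) and 5.15 ± 0.22 (adjusted *P* = 0.00012) without pair 2. *Nfat5*, the transcription factor that drives these genes under hypertonicity, had 197, 181, 160.1, 138 and 173 CPM in Cx and 772, 185, 646, 659 and 727 CPM in OM. OM replicate 2 lay within the Cx range and the other 4 far above it. On the log2 scale the ratio was 1.70 ± 0.35 (SE, adjusted *P* = 0.013) and 2.06 ± 0.09 (adjusted *P* = 0.00014) without pair 2, with adjusted *P* of 0.055, 0.056 and 0.055 without pair 1, 3 or 4.

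*Sord*, sorbitol dehydrogenase, which breaks down the osmolyte sorbitol, had 771, 823, 762, 797 and 776 CPM in Cx and 87.0, 405, 168, 161 and 48.1 CPM in OM. It went the other way without overlap, and the OM minus Cx log2 ratio came to -2.53 ± 0.44 (SE, adjusted *P* = 0.0068) and -2.91 ± 0.35 (adjusted *P* = 0.0020) without pair 2. *Akr1b1*, aldose reductase, which makes sorbitol, did not pass with all pairs (0.57) and was higher in OM without pair 2 (0.80). The taurine transporter *Slc6a6* (0.90) and *Pnpla6*, which forms glycerophosphocholine (0.54), were higher in OM, and *Gpcpd1*, which breaks down glycerophosphocholine, higher in Cx (-0.68). *Pnpla6* lost its call with 1 pair left out, at a highest adjusted *P* of 0.12 without pair 3.

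Of 10 genes known as targets or parts of the hypoxia response, 2 were higher in OM and 5 in Cx, beside 17.1% and 18.0% of all genes. The count in OM was near that share. The median log2 ratio was -0.41. Without pair 2 the counts were 3 and 5 and the median -0.46, and without pair 1, 3 or 4 the counts were 1 and 4 to 5. When scaled by total counts the median was -0.17. *Slc2a1*, the glucose transporter GLUT1, had 21.0, 26.5, 28.6, 25.0 and 24.5 CPM in Cx and 111, 75.1, 139, 95.9 and 128 CPM in OM. Every OM value was above every Cx value (2.10 ± 0.15, adjusted *P* = 0.00048, and 2.24 ± 0.10, adjusted *P* = 0.00014, without pair 2). *Ndrg1* went the other way, at 1948, 1626, 1812, 1858 and 1226 CPM in Cx and 294, 827, 459, 395 and 275 CPM in OM. The groups did not overlap (-2.02 ± 0.26, adjusted *P* = 0.0025, and -2.28 ± 0.15, adjusted *P* = 0.00035, without pair 2). *Adm*, adrenomedullin (-2.35), *Ankrd37* (-1.38), *Epas1*, the HIF-2 alpha subunit (-0.93), and *Bnip3* (-0.76) were also higher in Cx, *Pdk1* was slightly higher in OM (0.40, but adjusted *P* = 0.072 without the block) and, without pair 2, *Egln3* as well (1.41). *Hif1a* and *Vegfa* did not pass (-0.06 and 0.04). *Epo*, erythropoietin, was below the filter, at 0.288 to 0.607 CPM in Cx and at 0 in all 5 OM libraries, where 3 counts were 0.180 to 0.254 CPM. *Ankrd37* (0.0508 without pair 1) and *Pdk1* (0.14 without pair 1) lost their calls with 1 pair left out, at these highest adjusted *P* values.

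The protein-coding genes of largest ratio, among those of at least 10 CPM in the higher tissue with the same direction in all 5 pairs and no overlap, added names from outside the lists. Among the 12 highest in OM, *Fst*, follistatin, an inhibitor of activin, came first, at 0.151, 0.156, 0.379, 0.288 and 0.0635 CPM in Cx and 117, 9.42, 101, 96.4 and 135 CPM in OM. Cx was near 0 throughout and OM replicate 2 lay more than 10-fold below each other OM library. The log2 ratio was 8.72 ± 0.41 (SE, adjusted *P* = 0.00016) and 8.96 ± 0.30 (adjusted *P* = 9.4e-05) without pair 2. *Cyp1a1*, a cytochrome P450 induced through the aryl hydrocarbon receptor, had 0.757, 0.156, 0.303, 0.648 and 1.08 CPM in Cx and 55.6, 222, 138, 129.9 and 4.35 CPM in OM. It was highest in replicate 2 and lowest in replicate 5, as *Slc7a13* and *Agt* were, and the OM minus Cx log2 ratio came to 6.92 ± 1.07 (SE, adjusted *P* = 0.0046) and 6.36 ± 0.98 (adjusted *P* = 0.0047) without pair 2.

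Others were *Slc22a13*, an organic anion transporter (7.31), the ligand gene *Wnt7b* (6.76), *Slc22a7* and *Slc14a1* from the lists, *Pcsk6*, a proprotein convertase (6.04), *Slc7a13*, *Cldn23* (6.0), *Ppp1r1b* (5.89) and *Liph*, a phospholipase (5.71). Of the 12 highest in Cx, *Slc5a12*, *Calb1*, *Slc22a8*, *Slc5a2*, *Slc6a19*, *Slc34a3*, *Slc15a1* and *Slc4a4* are described with their lists. *Klk1c9*, a tissue kallikrein, had 928, 1156, 1042, 848 and 863 CPM in Cx and 1.81, 268, 10.1, 7.14 and 0.528 CPM in OM. All OM libraries were below Cx, replicate 2 by the least (-7.17 ± 1.42, adjusted *P* = 0.011, and -8.02 ± 0.80, adjusted *P* = 0.0011, without pair 2), and since the kallikrein family is made of close copies its reads may be shared among them. *Tlr12*, a Toll-like receptor (-6.60), *F13b*, a coagulation factor subunit (-6.57), and *Folh1*, a folate hydrolase (-6.32), completed the group.

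The same contrast in rats on high salt shared no library with the one on LS. At HS14, 1937 genes (13.4%) were higher in OM and 1716 (11.9%) higher in Cx, and at HS21, 2842 (19.4%) and 2554 (17.4%). The HS14 counts moved with single pairs, to 1258 and 1140 without pair 8, to 1192 and 1065 without pair 9 and to 3073 and 3075 without pair 10, whose OM library was by far the shallowest of the series. Of the 4965 LS calls tested at HS14, 98.4% had the same sign and 57.0% were called in the same direction, which were 77.4% of the HS14 calls. Of 4964 tested at HS21, 95.2% had the same sign and 69.3% were called in the same direction, 63.8% of the HS21 calls, and 9 were called in the opposite one. For LS calls of at least 2-fold, 84.8% were called in the same direction at HS14 and 88.0% at HS21. Differences between the diets were not tested.

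The main segment lists were called in the same direction in the other rats. The counts below stand beside 13.4% of all genes higher in OM and 11.9% in Cx at HS14, and 19.4% and 17.4% at HS21. All 11 proximal S1-S2 genes were higher in Cx at HS14 and at HS21, 10 of 14 TAL genes were higher in OM at each, and 7 and 8 of 8 genes of the distal convoluted and connecting tubule were higher in Cx. Of the 9 S3 genes, 7 were higher in OM at HS14 and 7 at HS21, with 1 and 0 higher in Cx, against 4 and 0 on LS. Of 5 thin limb genes tested, 4 were higher in OM at each time, and of 9 podocyte genes 7 and 9 were higher in Cx. Intercalated cell genes higher in Cx numbered 4 of 11 at HS14 and 8 of 11 at HS21, beside 4 on LS, with 1 higher in OM each time. Fibroblast and matrix genes, with 0 of 5 called on LS, were higher in OM for 4 of 5 at HS14 and 2 of 6 at HS21.

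Several metabolic lists gave other counts on high salt, where 25.3% of all genes were called at HS14 and 36.8% at HS21. TCA cycle genes higher in Cx were 15 of 20 on LS, 8 at HS14 and 6 at HS21, and 4 were higher in OM at HS21, with list medians of -0.47, -0.39 and -0.07. Mitochondrial fatty acid oxidation genes higher in Cx were 7 of 16 on LS, 2 at HS14 and 3 at HS21, with 2 higher in OM at HS21 and medians of -0.46, -0.35 and -0.12. Nuclear-encoded respiratory chain genes had 7, 0 and 2 of 22 higher in Cx, whereas those of the mitochondrial genome had 1, 1 and 9 of 13. For gluconeogenesis the count in Cx was 7 of 10 in each diet group.

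All 24 genes of largest ratio were called in the same direction at both times. *Slc5a12* had log2 ratios of -8.08 on LS, -7.74 at HS14 and -5.35 at HS21, and *Calb1* -7.25, -9.40 at HS14 and -8.48 at HS21. *Fst* had 8.72, 8.60 at HS14 and 7.44 at HS21. Of the 203 listed genes called on LS, 159 were also called in the same direction at HS14 and 171 at HS21. *Ogdh*, a subunit of oxoglutarate dehydrogenase, was the 1 listed gene called in opposite directions, with -0.60 on LS and 0.25 at HS21 (adjusted *P* = 0.018), and was named after its value was seen.

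**Figure D5:**
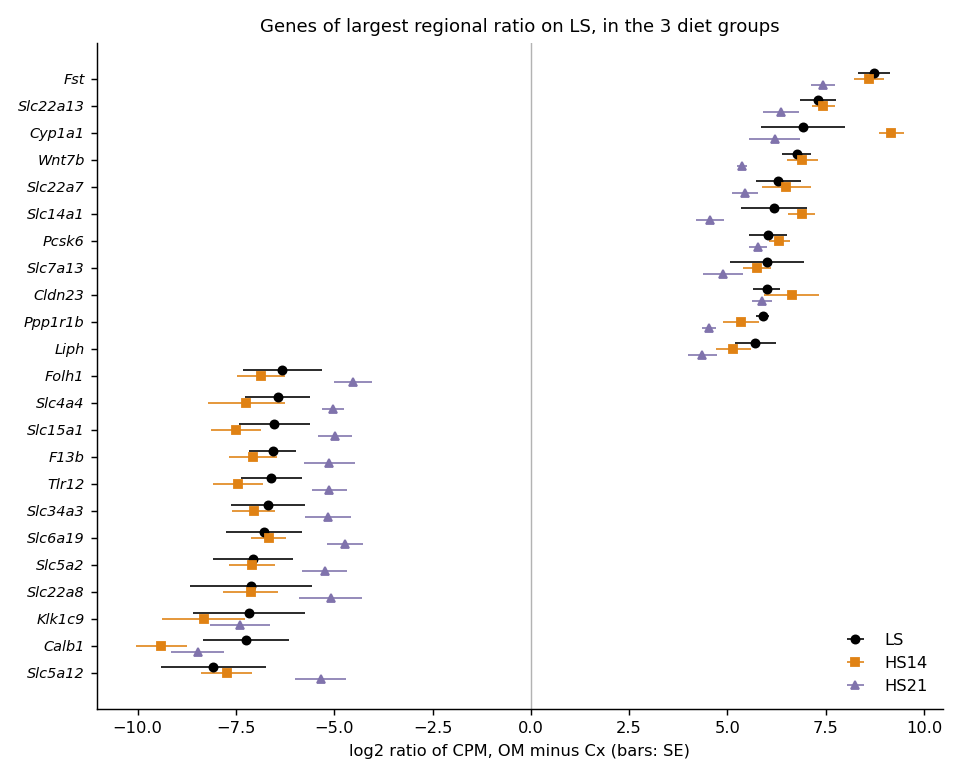
Log2 ratio of CPM, OM minus Cx, with its SE for 11 of the 12 genes of largest ratio in OM and all 12 in Cx on LS, drawn for LS, HS14 and HS21 from separate fits of 10 libraries each. Each gene drawn keeps its sign in all 3 groups, and on LS the ratios run from 8.72 for Fst to -8.08 for Slc5a12.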

How the data were processed

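Right kidney Cx and OM of male rats were profiled by mRNAseq, with 5 libraries per tissue and diet group. Per the authors' methods, poly(A) libraries without strand marking were aligned to Ensembl Rnor_6.0 with Hisat2 2.0.5, counted with FeatureCounts 1.5.0-p3 and deposited as raw counts per gene, beside FPKM values per gene, group means and the fold changes and P values of the authors' own comparisons, which were not used. Without strand, reads of overlapping genes on opposite strands cannot be told apart. Genes passing filterByExpr (14295 of 32545) were tested on the counts with edgeR 4.0.16 (R 4.3.3), a quasi-likelihood F-test with TMM scaling and the replicate number as a block, and a gene was called at an adjusted P under 0.05. CPM values use TMM-scaled library sizes, and SEs are the log2 ratio divided by the square root of F. Depths were 12748841 to 17048749 counts on LS, and values of 0 are given against 3 counts, which covers counting error only. Equal replicate numbers are not stated to be the same rat. Same-number correlations of deviations from the tissue means were 0.138, 0.0342, 0.0998, 0.0731 and -0.0908. Between libraries of unlike number they ran from -0.126 to 0.105. Of the 5 OM libraries, 3 correlated best with the Cx library of their number. The data thus do not show pairing in every pair, and the block was kept because the contrast is defined by number. Of 383 listed symbols 377 were found (8 by an older symbol) and the other 6 were not analysed here. Genes named were list members, and the 12 protein-coding genes of largest ratio in each direction of at least 10 CPM in the higher tissue with the same direction in 5 of 5 pairs and no overlap. Some list members and 1 of the 12 genes in OM are not reported here. Members and lists were chosen with earlier results of these data known. Alternatives were DESeq2 1.42.0, limma 3.58.1 on log2(FPKM + 1) and log2(FPKM + 0.1), other scalings, filters and each pair left out. The procedure was tested on simulated data with 200 genes changed 2-fold. The fit with the block called 50% of them, and 4.76% of its calls were false. The simulation had no pair effect and the same dispersion in both tissues, so it does not cover the wider spread of the OM libraries.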

Additional observations from a re-analysis of the deposited data

Results flagged for a closer look

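Of 88 groups of 5 libraries checked, 9 held a library far from the others. There the gap to the nearest library divided by the range of the group passed Dixon's critical value of 0.71. For a single group chance alone gives about 1 in 20. The groups share the same libraries, and their genes were chosen with earlier results known. The 9 were therefore not compared with that rate. OM replicate 2 was the library far from the others in 7 of the 9. It was the lowest OM library for *Slc4a11* (gap 0.855 of the range), *Slc12a1* (0.776), *Slc14a1* (0.76), *Slc6a12* (0.803), *Nfat5* (0.875) and *Fst* (0.872), and the highest for *Slc12a3* (0.77). OM replicate 5 was the highest OM library for *Scnn1b* (0.801), and Cx replicate 1 the lowest Cx library for *Nphs1* (0.786). The values of these genes in every library, with and without pair 2, are in the report.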

How the results depend on the processing

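All numbers here are genes higher in OM, then in Cx. Scaling by total counts gave 4486 and 1694, against 2442 and 2569 with TMM. Leaving out 1 pair gave 1328 to 3033 and 1525 to 3131 on LS, and 1192 to 3073 and 1065 to 3075 at HS14. The fit without the replicate block gave 3051 and 2794 on LS, shared 4836 of the 5011 calls and named 1009 others. Among fits chosen after seeing the data, leaving out OM replicate 2 alone, without the block, gave 3768 and 3790. Other size factors, filters, DESeq2, limma on FPKM and a fit of all 30 libraries gave 2302 to 3129 and 2331 to 3006. Over 6237 refits of named genes, 0 reversed a call, 268 lost it and 356 gained it, and the cause was not tested. The median SD of log2 CPM between libraries was 0.292 in OM and 0.143 in Cx, and the limit set by depth was not compared with it.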
